A study of Mus musculus with 2 samples.

Results

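The tripartite motif (Trim) family was described in immune cells from mouse glioma. The members were every gene whose symbol is Trim, a number and at most 1 letter from a to e, with at least 20 unique molecular identifiers (UMIs, counts of single captured transcripts) over both libraries. This rule gave 44 members of 68 matching symbols and of 31253 genes in all. The closest symbols outside the minimum were Trim66 with 18 UMIs and Trim9 with 12, and the closest inside it were Trim45 with 57 and Trim6 with 60. The study's title concerns the transfer of macrophages into mice with glioblastoma. One library came from tumours treated with phosphate-buffered saline (PBS) and one from tumours treated with EM, an abbreviation that the labels do not expand, titled 72 h. No time is given for the PBS library. Both held viable cells with CD45.2 and without CD45.1, that is, immune cells of the host, sorted from the tumour and captured on the BD Rhapsody system. The mouse strain, age and tumour line, and the number of animals behind each library, are not stated in the labels.

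TRIM proteins share a RING finger, B-box zinc fingers and a coiled coil, and most act as ubiquitin ligases. The part that follows the coiled coil differs between subfamilies: a SPRY domain binds many kinds of target, while a PHD finger with a bromodomain reads chromatin. Many SPRY-type members are induced by interferon and act in antiviral defence or in the control of nucleic acid sensing, and others are expressed in most cells whatever the interferon tone. Of the 44 members, 15 belong to a list of genes linked to interferon (Trim5, Trim6, Trim12a, Trim12c, Trim14, Trim21, Trim25, Trim26, Trim30a, Trim30b, Trim30c, Trim30d, Trim34a, Trim56 and Trim69) and 29 do not. Trim34b, with 9 UMIs, and Trim38, with 0, are also on that list but were under the minimum. Trim12b, also listed, was not among the gene symbols of the data.

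In the GRCm38 annotation, 9 of the members lie side by side on chromosome 7 between 104218793 and 104507849, a stretch of 289.1 kb that also holds Trim34b. They are Trim6, Trim34a, Trim5, Trim12a, Trim12c, Trim30b, Trim30c, Trim30a and Trim30d, all of them protein-coding and all on the interferon-linked list. Promoters of 33 of the 44 members were found in RefSeq (GRCm38.p6), each running from 250 bases before to 50 bases after a start site. The core of the interferon-stimulated response element, GAAA followed by any 2 bases and GAAA again, was searched on both strands (TTTC, any 2 bases and TTTC on the other). It stood in the promoter of 8 of 14 interferon-linked members and of 1 of 19 other members, Trim2, against 3.99% of the 27025 genes with a promoter. The windows below are shown because they carry this motif, in capitals, in 8 interferon-linked members, among them Trim30a, Trim30d and Trim34a. Each is read in the direction of its gene and ends at the latest 30 bases after the start site.
Trim30a: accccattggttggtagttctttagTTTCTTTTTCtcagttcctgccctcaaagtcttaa
Trim30d: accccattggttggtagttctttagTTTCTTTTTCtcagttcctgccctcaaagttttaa
Trim34a: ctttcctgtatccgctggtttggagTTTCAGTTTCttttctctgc
Trim5: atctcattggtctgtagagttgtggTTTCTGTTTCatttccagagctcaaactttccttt
Trim12a: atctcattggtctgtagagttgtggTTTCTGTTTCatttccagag
Trim12c: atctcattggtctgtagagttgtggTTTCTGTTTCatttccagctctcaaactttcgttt
Trim21: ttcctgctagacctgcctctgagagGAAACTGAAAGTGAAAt
Trim26: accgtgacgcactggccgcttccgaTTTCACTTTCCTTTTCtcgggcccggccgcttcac

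The Trim30a window lies at chr7:104465195-104465254 on the minus strand, and its motif starts 36 bases before the start site. Position by position, the printed Trim30a and Trim30d windows shared 59 of 60 bases. Trim30a had another start site, not printed, with the motif 3 bases into the transcript. The window there shared 39 of 53 bases with that of Trim30d. The Trim5 and Trim12a windows shared 45 of 45 bases, and the Trim5 and Trim12c windows 57 of 60, so nearly the same stretch stands at the start of several genes of the cluster. The Trim34a window lies at chr7:104244442-104244486 on the plus strand, with its motif 11 bases into the transcript. Trim21, at chr7:102565453-102565494, and Trim26, at chr17:36836961-36837020, each held a pair of overlapping matches. The Trim30b, Trim30c and Trim25 promoters held no match to these letters. A second motif, TTCNNNGAA, the core bound by STAT dimers, which reads the same on both strands, stood in the promoters of Trim30c, Trim45 and Trim46 and in 9.55% of genes overall. No member's promoter held overlapping matches to both motifs. For comparison, the promoter of Trim28 (chr7:13023902-13024181, plus strand), a chromatin corepressor outside the interferon-linked list, held neither motif.
Trim28: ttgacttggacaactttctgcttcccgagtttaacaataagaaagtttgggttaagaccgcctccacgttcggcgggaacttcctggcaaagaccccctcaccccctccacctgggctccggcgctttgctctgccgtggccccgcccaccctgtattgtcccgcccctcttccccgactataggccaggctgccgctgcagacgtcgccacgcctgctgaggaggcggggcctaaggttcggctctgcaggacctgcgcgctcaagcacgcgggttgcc

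After filtering, the PBS library held 7756 cells with a median of 4303 UMIs and the EM library 7967 cells with a median of 2016. Marker genes placed 90.2% of PBS and 93.9% of EM cells in 1 of 9 classes, and all 8 markers of each class were detected in that class in every library where it had at least 50 cells. The libraries shared 66 cell barcodes. They also differed in sex-linked transcripts, with Xist at 10.6 counts per 1000000 (CPM) in PBS and 384 in EM, and Ddx3y at 192 and 4.46. Each treatment had 1 library, so no test between treatments was possible: every ratio below compares these 2 libraries, and its exact 95% interval covers counting error only. Treatment, sex-linked differences, library preparation and any difference in collection time cannot be told apart. Within a class, more cells with a transcript and more transcript per cell cannot be told apart either. A gene was called higher or lower in EM where its CPM differed by at least 2-fold and the interval excluded equality; genes with under 20 UMIs in a class were not compared. Ratios were taken in the classes that held 100 cells or more on both sides: T cells (4205 in PBS, 5400 in EM), NK cells (246 and 534), monocytes/macrophages (1385 and 509) and microglia (229 and 299).

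Trim transcripts as a whole were more abundant in the EM library in T cells, NK cells and monocytes/macrophages, and the surplus lay in the interferon-linked members. In monocytes/macrophages the 15 interferon-linked members summed to 657 CPM in PBS against 1859 in EM, while the 29 others summed to 501 and 363 CPM. T cells went from 738 to 1533 CPM for the interferon-linked sum and from 771 to 731 CPM for the others. NK cells went from 874 to 1606 CPM and from 781 to 699 CPM. Microglia differed least, with 833 and 981 CPM for the interferon-linked sum and 737 and 634 CPM for the others. Trim30a alone made up 17.4% of the members' UMIs in PBS and 39.4% in EM monocytes/macrophages, and 13% and 28.3% in T cells.

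**Figure D1:**
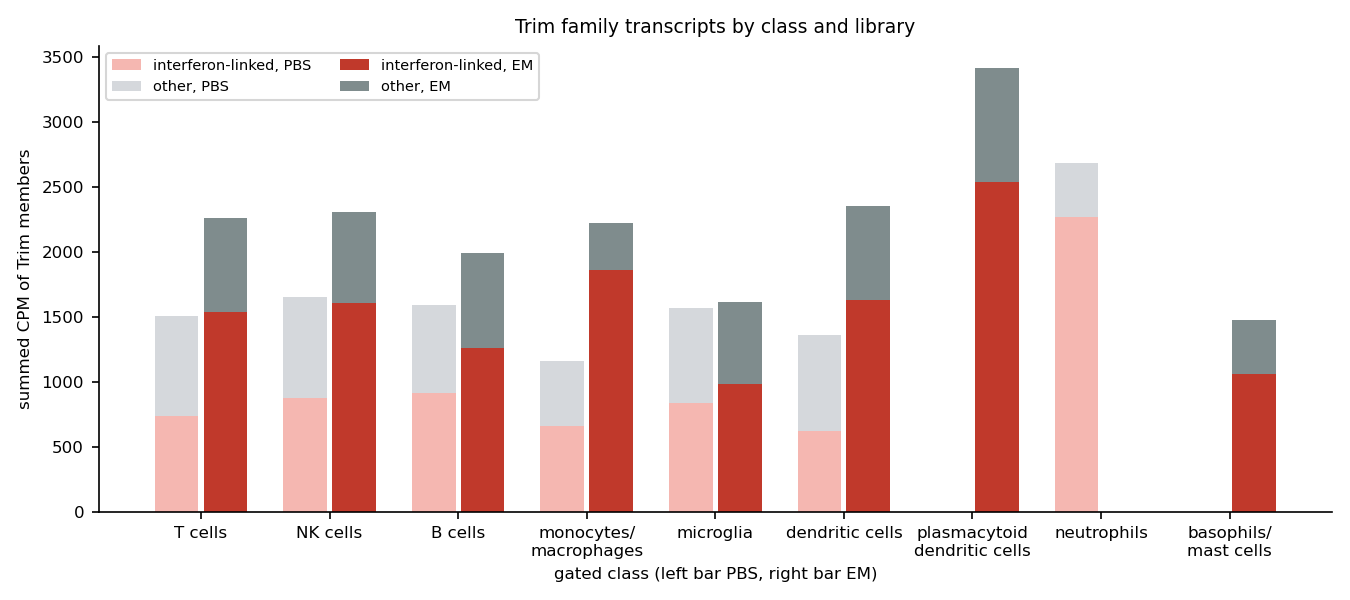
Summed CPM (y axis) of the 44 Trim members in each gated class with at least 50 cells (x axis), with the PBS library as the left bar and the EM library as the right bar; the lower part of a bar is the 15 interferon-linked members and the upper part the 29 others, with 1 library per bar and no error bar. The interferon-linked part is taller in EM than in PBS in each class with both bars, and in monocytes/macrophages it goes from 657 to 1859 CPM.

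Trim30a and Trim30d were called higher in T cells, NK cells and monocytes/macrophages, and Trim30b and Trim30c in both classes where they could be compared. Trim30a, a SPRY-type protein that restrains NF-kB signalling by promoting the loss of TAB2 and TAB3, was at 202 CPM in PBS against 876 in EM monocytes/macrophages, a log2 ratio of 2.12 (interval 2.01 to 2.23). In T cells it was at 197 and 640.1 CPM, a log2 ratio of 1.70 (1.65 to 1.76), and in NK cells at 232 and 690.5 CPM, a log2 ratio of 1.57 (1.35 to 1.8). In these 3 classes the EM level was more than 2-fold above the PBS level. Microglia stood apart: Trim30a was at 266 CPM in PBS and at 486 CPM in EM, the lowest EM level of the 4 classes. The microglial log2 ratio of 0.87 (0.62 to 1.12) was not called in the main comparison but was called, at 1.24, when cells with markers of a second class were left out and, at 1.02, in thinned cells. Whether the ratio differs between classes was not tested.

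Trim30d is the close relative whose promoter window nearly matches the printed window of Trim30a. Trim30d was at 57.0 CPM in PBS against 179 in EM T cells, a log2 ratio of 1.65 (1.55 to 1.75). It was at 51.8 and 184 CPM in NK cells (log2 ratio 1.83) and at 78.9 and 312 CPM in monocytes/macrophages (log2 ratio 1.98). In microglia it was level, at 118 and 120.2 CPM. Trim30d was thus called in the same 3 classes as Trim30a.

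Trim30b and Trim30c, neighbours of Trim30a with few transcripts in the PBS cells of the 4 compared classes, gave the largest ratios among the members in T cells and in monocytes/macrophages. In monocytes/macrophages Trim30b was at 3.64 CPM in PBS (48 UMIs) and 55.3 CPM in EM (56 UMIs), a log2 ratio of 3.92 (3.34 to 4.51). Trim30c was at 7.14 CPM (94 UMIs) and 69.1 CPM (70 UMIs), a log2 ratio of 3.28 (2.81 to 3.74). In T cells both stayed low but were called as well: Trim30b at 0.588 and 2.54 CPM (log2 ratio 2.11, 1.15 to 3.16) and Trim30c at 1.27 and 8.97 CPM (log2 ratio 2.83, 2.22 to 3.47). NK cells and microglia held under 20 UMIs of each, too few to compare. Trim30c shared 0.443% of the 50-base stretches of its last 500 transcribed bases with Trim30d, and Trim30a, Trim30b and Trim30d shared none exactly with another gene.

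Trim34a, a SPRY-type relative of the human retroviral restriction factors, was the only member called higher in all 4 compared classes. It was at 24.3 CPM in PBS against 52.1 in EM T cells (log2 ratio 1.10, 0.94 to 1.27), and at 15.8 and 58.4 CPM in NK cells (1.89, 1.06 to 2.82). In monocytes/macrophages it was at 10.2 and 38.5 CPM (1.92, 1.37 to 2.44), and in microglia at 21.3 and 51.9 CPM (1.29, 0.43 to 2.09). The T-cell call sits near the limit. With every cell thinned to 1000 UMIs the T-cell log2 ratio was 0.93, and without cells of a second class 0.99, both under 2-fold. In NK cells the main interval lay above 2-fold, but the log2 ratio in thinned cells was 0.97, under 2-fold.

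The members related to human TRIM5, which blocks incoming retroviral capsids, did not move as a block although they share a promoter window. Trim12c was at 28.5 CPM in PBS against 82.9 in EM monocytes/macrophages, a log2 ratio of 1.54 (1.18 to 1.89), and was called there. Its log2 ratio was 0.84 in T cells, 0.53 in NK cells and 0.39 in microglia, none of them called. Trim12a was called in none of the 4 classes, with log2 ratios of 0.53 in T cells, -0.19 in NK cells, 0.71 in monocytes/macrophages and -0.69 in microglia; in thinned cells it was called higher in monocytes/macrophages (1.13) and lower in microglia (-2.15, and -1.01 under the stricter gate). Trim5 was not called either, with log2 ratios of -0.25, 0.16, 0.54 and -1.55 in the same order, the last called lower with median-of-ratios scaling (-1.74). Trim5 and Trim12c shared 7.76% of these 50-base stretches with each other, and a read from those stretches could match both genes. In all, 7 of the 44 members shared any such stretch with another gene, from 0.443% for Trim30c to 10.2% for Trim13.

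Of the members that act on antiviral signalling, Trim25, the ligase that activates the RNA sensor RIG-I, had a class-dependent pattern. It was at 45.9 CPM in PBS against 84.3 in EM T cells, a log2 ratio of 0.88 (0.75 to 1.00) that was not called. In NK cells it was at 42.8 and 86.5 CPM, a log2 ratio of 1.01 (0.48 to 1.58) that was called but fell to 0.80 with classes taken from clusters. In monocytes/macrophages Trim25 was at 155 and 151 CPM, a log2 ratio of -0.04 (-0.28 to 0.20). The C1q subsets of this class, described further on, differed, though neither was called. The log2 ratio was -0.59 (-1.08 to -0.14) in C1q-positive and 0.20 (-0.17 to 0.57) in C1q-negative cells. In microglia Trim25 was at 105 and 79.2 CPM, a log2 ratio of -0.41. The PBS level of Trim25 was thus higher in both myeloid classes than the EM level in T or NK cells. With every cell thinned to 1000 UMIs the T-cell log2 ratio was 1.04 and was called.

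Trim14, an adaptor of mitochondrial antiviral signalling, was at 34.1 CPM in PBS against 82.9 in EM monocytes/macrophages, a log2 ratio of 1.28 (0.93 to 1.62) that was 1.00 and not called with the stricter gate. Trim21, a cytosolic antibody receptor and ligase, was at 11.7 and 28.6 CPM there, a log2 ratio of 1.29 (0.67 to 1.87) that was 0.74 in thinned cells and 0.91 without cells of a second class, neither called. Both had smaller ratios in T cells, 0.50 for Trim14 and 0.63 for Trim21. In NK cells and microglia neither was called, with log2 ratios of 0.36 and -0.37 for Trim14 and of -0.32 and 0.04 for Trim21. Calls for this pair were thus restricted to monocytes/macrophages among the 4 classes, which was not tested as a difference.

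Trim26, a ligase described for the transcription factor IRF3, and Trim56, described for the DNA-sensing adaptor STING, were called in none of the 4 classes. The log2 ratios of Trim26 were 0.67 in T cells, 0.10 in NK cells, 0.26 in monocytes/macrophages and -0.35 in microglia. Those of Trim56 were 0.09, 0.11, 0.20 and -0.94, the last called lower with T-cell RNA subtracted (-1.04) or with median-of-ratios scaling (-1.13). Trim6, which builds unanchored ubiquitin chains, had enough UMIs in monocytes/macrophages alone, 21 in PBS and 1 in EM, with a log2 ratio of -0.69 (-6.06 to 1.95) that does not set a direction. Trim69, another SPRY-type member, went the other way: monocytes/macrophages had 50 UMIs (3.80 CPM) in PBS and 0 in EM. Against a floor of 3 counts in the EM library it was 1.28-fold lower, and its log2 interval ended at -0.006, close to equality. Its call thus rests on a value below 2-fold, and it was not called with classes taken from clusters. In T cells Trim69 had 45 and 20 UMIs, a log2 ratio of -0.44 (-1.28 to 0.35).

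**Figure D2:**
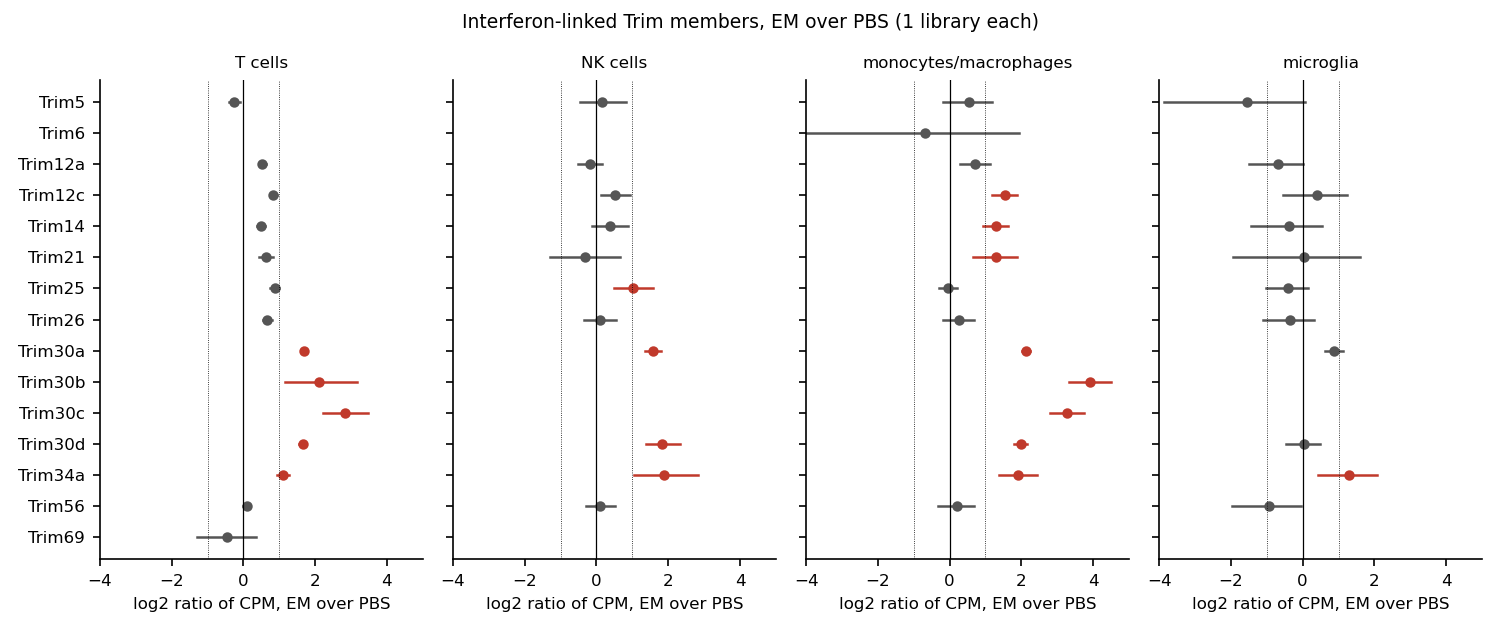
Log2 ratio of CPM, EM over PBS (x axis), of the 15 interferon-linked members (y axis) in T cells, NK cells, monocytes/macrophages and microglia, 1 library per treatment; points are ratios, bars are exact 95% counting intervals cut at the axis limits, red marks a call of higher, grey no call, dotted lines 2-fold either way, and members with under 20 UMIs or with 0 UMIs in a library have no point. The Trim30 genes and Trim34a sit to the right in T cells and monocytes/macrophages, while in microglia only Trim34a is red, at 1.29.

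Counted as a list, 8 of the 15 interferon-linked members were called higher and 1 lower in monocytes/macrophages, where 6.78% of all 11534 genes compared were called higher and 13.6% lower. In T cells 5 of 14 were higher and none lower, against 4.86% and 11.2% of 13292 genes, and in NK cells 4 of 11 were higher and none lower, against 4.16% and 7.31% of 8263 genes. In microglia 1 of 11 was higher, Trim34a, and none lower, against 6.41% and 18.9% of 9151 genes. The list's median log2 ratio was 1.28 in monocytes/macrophages, 0.75 in T cells, 0.36 in NK cells and -0.35 in microglia, and that of all genes compared was -0.28, -0.14, -0.10 and -0.32. The microglial count of 1 is therefore near the background, and the other 3 are above it. Scaling by the median of ratios in place of CPM moved all log2 ratios by 0.13 upward in NK cells and by 0.19 downward in microglia, and changed the share of called genes that were higher from 36.3% to 51.4% and from 25.4% to 14.9%.

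Interferon-stimulated genes outside the family gave the setting. Mx1 was on this list as well but was not among the gene symbols of the data. Of the 19 listed genes found, 19 were called higher in monocytes/macrophages, 17 in T cells, 16 in NK cells and 12 in microglia. None of them was lower, and 6.78%, 4.86%, 4.16% and 6.41% of all genes were called higher. Their median log2 ratios were 3.02, 2.79, 1.69 and 1.11, each larger than that of the interferon-linked Trim members in the same class. Isg15, a ubiquitin-like modifier, was at 64.2 CPM in PBS against 592 in EM monocytes/macrophages (log2 ratio 3.20) and at 32.4 and 153 CPM in microglia (2.24). Irf7, the factor that amplifies interferon production, had log2 ratios of 3.37 in monocytes/macrophages and 2.01 in microglia. Microglia thus had higher EM levels of most of these genes while 10 of the 11 interferon-linked Trim members compared there were not called. Of family proteins named without the Trim symbol, Pml, which builds nuclear bodies, was called higher in monocytes/macrophages (19.9 and 110 CPM, log2 ratio 2.46), T cells (1.79) and NK cells (1.88), but not in microglia (0.54). Mefv, the inflammasome sensor pyrin, was at 14.4 and 54.3 CPM in monocytes/macrophages, a log2 ratio of 1.91. The X-linked microtubule-binding ligases Mid1 and Mid2 moved unevenly. Mid1 was higher in T cells (1.02) and monocytes/macrophages (1.79). It was undetected in EM microglia, 2.82-fold lower against a floor of 3 counts. Mid2 was lower in T cells (-3.35). The libraries also differed in Xist, and its part in this was not tested. In the C1q-positive cells of the monocyte/macrophage class Mid1 (-0.15) and Mefv (0.04) were not called, while in the C1q-negative cells both were higher, at 1.17 and 1.37. Pml was higher in both, at 1.04 and 1.97.

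The 29 other members gave counts near or below the shares of all genes given above. In T cells 28 could be compared, 1 was called higher and 1 lower, with a median log2 ratio of -0.18, against 4.86% and 11.2% of all genes. In NK cells 1 of 17 was higher and 1 lower (median -0.16), against 4.16% and 7.31%. In monocytes/macrophages 1 of 23 was higher and 4 lower (median -0.50), against 6.78% and 13.6%. In microglia 1 of 20 was higher and 1 lower, against 6.41% and 18.9% (median -0.60, or -0.43 with Trim16, undetected in EM, at its bound). Over the 4 classes 20 of the 29 were never called, 4 were higher in at least 1 class and 5 lower, and none went both ways. Among the interferon-linked members 9 of 15 were higher in at least 1 class, 1 was lower and 5 were never called. The share of all genes called in at least 1 of the 4 classes was not computed, so these joint counts have no background. The shares of single classes are too low to serve as one.

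Of the TIF1 subfamily, the chromatin readers with a PHD finger and a bromodomain, Trim24, Trim28 and Trim33 were not called in T cells. Trim28 (KAP1), the corepressor that silences retroelements through zinc finger proteins, was at 67.5 CPM in PBS against 75.1 in EM T cells (log2 ratio 0.15, 0.04 to 0.27), and at 38.3 and 42.4 CPM in monocytes/macrophages (0.15, -0.34 to 0.60). It was at 62.5 and 73.8 CPM in microglia (0.24) and at 49.6 and 94.6 CPM in NK cells, where a log2 ratio of 0.93 (0.43 to 1.46) came just under 2-fold. Trim28 was thus called in none of the 4 classes by CPM, but the NK value sits at the limit: it was called higher there without cells of a second class (1.02), in thinned cells (1.27) and with median-of-ratios scaling (1.06). In microglia Trim28 was called higher under the stricter cell filter (1.04). Trim33, which modulates SMAD4 signalling, had log2 ratios of 0.24 in T cells, -0.16 in NK cells, -0.59 in monocytes/macrophages and -0.81 in microglia, none called. The microglial ratio was called lower under the stricter cell filter (-1.67) and with median-of-ratios scaling (-1.0). Trim24, a coregulator of nuclear receptors, was at 77.3 CPM in PBS against 35.5 in EM microglia (log2 ratio -1.12, -2.06 to -0.31) and was called lower there. That call rests on 13 EM UMIs, and the log2 ratio was 0.06 when classes were taken from clusters. In T cells Trim24 was at 107 CPM (103 to 112) in PBS against 82.2 (77.5 to 87.3) in EM. That log2 ratio of -0.38 was under 2-fold, but the intervals of the levels lay apart. The log2 ratios of Trim24 were -0.97 in NK cells and -0.64 in monocytes/macrophages, both called lower without cells of a second class (-1.11 and -1.23).

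The proteins that work with Trim28 were mostly uncalled in whole classes, as were most genes. Of 5 listed partners (the methyltransferase Setdb1, its cofactor Atf7ip, and the heterochromatin proteins Cbx1, Cbx3 and Cbx5), none was called in T cells, NK cells or microglia. Of all genes there, 4.16% to 6.41% were called higher and 7.31% to 18.9% lower. In monocytes/macrophages Setdb1 was lower, at 40.0 CPM in PBS against 15.8 in EM, a log2 ratio of -1.34 (-2.16 to -0.63), and the other 4 were not called. The shares of all genes there were 6.78% higher and 13.6% lower. With 5 genes these counts do not set the partners apart from all genes. The C1q subsets described further on differed from the whole class: Cbx5 was higher in C1q-positive cells (log2 ratio 1.66) and lower in C1q-negative cells (-2.21, from 24 and 3 UMIs). Cbx3 (-1.33) and Setdb1 (-1.86) were lower in C1q-negative cells, and in C1q-positive cells they were not called.

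The remaining calls among the other members were single genes, most with few UMIs. Trim17, Trim47 and Trim16 each overlap another gene on the same strand (Hist3h2a, Trim65 and Fbxw10), and how reads from the overlap were counted is not stated. Trim17, a ligase studied in neuronal apoptosis, was at 1.58 CPM in PBS (35 UMIs) and 5.23 CPM in EM T cells (70 UMIs), a log2 ratio of 1.73 (1.12 to 2.36). Trim47, a SPRY-type ligase, was lower in EM T cells at 4.21 and 1.35 CPM (log2 ratio -1.64, -2.46 to -0.90) and in EM monocytes/macrophages at 17.2 and 7.90 CPM (-1.13, -2.36 to -0.12). In thinned cells Trim47 was not called in either, at -1.06 and -0.10. Its monocyte/macrophage call was lost in 3 of 10 alternatives, among them the stricter gate (-1.15). Trim23, which carries an ARF-type GTPase domain, was lower in NK cells at 28.2 and 8.13 CPM (log2 ratio -1.79) and in monocytes/macrophages at 17.0 and 4.93 CPM (-1.79), the latter -0.84 in thinned cells and -1.13 without cells of a second class, neither called. Its log2 ratio in T cells was -0.90 (-1.10 to -0.70), just short of a call.

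Trim39, a ligase that stabilises MOAP1, was higher in EM NK cells, at 14.7 and 34.7 CPM (log2 ratio 1.25, 0.34 to 2.26). Trim16, a galectin-binding autophagy factor, was at 2.05 and 6.91 CPM in monocytes/macrophages, a log2 ratio of 1.75 (0.31 to 2.99) from 7 EM UMIs. Trim44, which lacks the RING finger, was at 35.2 and 95.6 CPM in microglia, a log2 ratio of 1.44 (0.82 to 2.04). Trim29 and Trim68 were undetected in EM monocytes/macrophages after 104 and 60 PBS UMIs. Against a floor of 3 counts they were 2.67-fold and 1.54-fold lower. The upper ends of their log2 intervals lay nearer equality, at -1.09 and -0.28. All 104 Trim29 UMIs lay in C1q-positive cells. There 0 EM UMIs could not give a call for either gene at the EM depth. Trim29 was 1.14-fold lower against the floor, with a log2 interval reaching up to 0.14. Trim8, which binds the cytokine signalling inhibitor SOCS1, was not called in any class, with log2 ratios between -0.89 in microglia and 0.33 in T cells. Trim27, a ligase also called RFP, and Trim41, which binds protein kinase C, were not called in any of the 4 classes either. Their T-cell log2 ratios were -0.12 and -0.30.

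**Figure D3:**
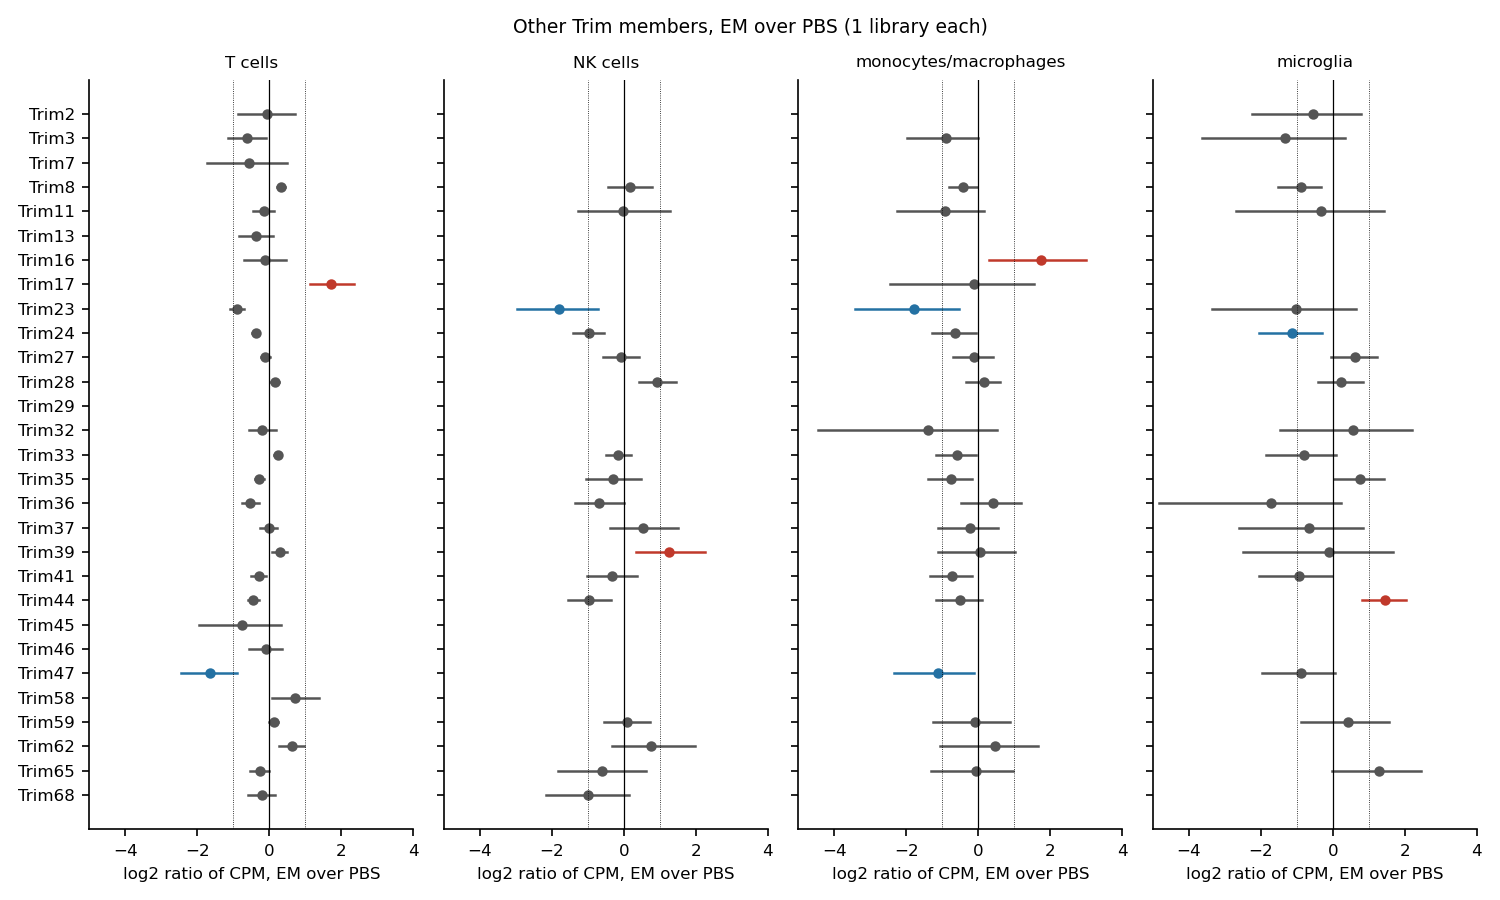
Log2 ratio of CPM, EM over PBS (x axis), of the 29 other Trim members (y axis) in the 4 compared classes, 1 library per treatment; points are ratios, bars exact 95% counting intervals cut at the axis limits, red a call of higher, blue a call of lower, grey no call, dotted lines 2-fold either way, and members with under 20 UMIs or with 0 UMIs in a library have no point. Most T-cell points lie close to 0, with Trim17 at 1.73 and Trim47 at -1.64 as the called ones.

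The cells of the monocyte/macrophage class differed between the libraries, and the part of this in the ratios of the class was not tested. Cells with transcripts of at least 2 C1q genes, complement subunits of resident-type macrophages, were 1120 of 1385 in PBS and 320 of 509 in EM, and cells with none were 200 and 168. The CPM of the class comes from summed UMIs, where the mix differed more. C1q-negative cells held 968199 of its 13174447 UMIs in PBS and 560929 of 1013283 in EM. C1q-positive cells held 11866573 in PBS and 389646 in EM. Median depth per cell was 9121 UMIs in PBS and 1229 in EM, and 27.7% and 43.6% of the cells lay at the limit of the gate. The depths were further apart in C1q-positive cells, with medians of 10477 UMIs in PBS and 903 in EM. In C1q-negative cells the medians were 4429.5 and 3186.5 UMIs, so the C1q split also differs in depth. Clusters of the class also split by library, the largest holding 982 PBS and 2 EM cells. Within C1q-negative cells Trim30a was at 249 CPM in PBS against 1077 in EM (log2 ratio 2.11, 1.90 to 2.33), close to the value for the whole class. Within C1q-positive cells it was at 196 and 562 CPM (1.52, 1.31 to 1.72).

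For Trim30b and Trim30c the whole-class ratio was larger than the ratio within either subset. Trim30b had log2 ratios of 3.50 in C1q-positive and 1.93 in C1q-negative cells, against 3.92 for the class. Trim30c had 1.00 (-0.92 to 2.43, 4 EM UMIs, not called) and 2.16 (1.46 to 2.90), against 3.28. Both genes had higher PBS levels in C1q-negative cells, 19.6 CPM for Trim30b and 24.8 CPM for Trim30c, than in C1q-positive cells, 2.28 and 5.14 CPM. Trim30d and Trim12c also had larger ratios in the whole class than within either subset. Trim30d had log2 ratios of 1.04 in C1q-positive and 1.66 in C1q-negative cells, against 1.98 for the class. Trim12c had 1.22 and 1.25, against 1.54. Outside the Trim symbols, Rsad2 had 2.20 and 3.62, against 4.57. The list counts stayed above the background in each subset: 6 of 15 interferon-linked members were higher and none lower in C1q-positive cells, against 6.46% and 11.5% of genes, and 7 of 13 higher and none lower in C1q-negative cells, against 7.71% and 17% of genes. Trim34a was called in the C1q-negative subset (1.94) and not in the C1q-positive one (0.90). Of the other members, Trim41 was lower in C1q-positive cells (-1.41), and Trim27 (-1.26) and Trim44 (-1.13) were lower in C1q-negative cells. The whole-class calls of lower were not met in C1q-positive cells, with Trim23 at -1.17 (-3.46 to 0.40) and Trim47 at -0.55 (-2.19 to 0.69). Trim29, Trim68 and Trim69 were undetected there in EM. The EM subset held 389646 UMIs, too few for 0 counts of these genes to be called: their intervals reached up to 0.14, 1.05 and 1.60. Whether the calls hold within C1q-positive cells cannot be read from this depth. In C1q-negative cells Trim23, Trim47, Trim29, Trim68 and Trim69 had under 20 UMIs each.

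RNA of other cells also differed between the libraries in this class. The 6 T-cell reference genes were all detected, at a median of 0.893% of their T-cell level in PBS and 3.83% in EM monocytes/macrophages. With T-cell RNA subtracted at that level, the log2 ratio of Trim30a was 2.13, of Trim30b 3.97 and of Trim30c 3.32, as large as without it. Neutrophil markers summed to 679 CPM in PBS against 205 in EM monocytes/macrophages, with 4 of 8 at 0 in EM. Their part in the result was not tested. In microglia 35.4% of PBS and 30.1% of EM cells lay at the limit of the gate, median depth was 8223 and 870 UMIs, and monocyte/macrophage markers summed to 2714 and 2396 CPM. The main microglial clusters held 186 PBS and 7 EM cells in one and 15 PBS and 383 EM cells in the other.

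In the T-cell subsets Trim30a and Trim30d were called throughout. In cells with Cd8 transcripts and no Cd4, 5 of 14 interferon-linked members were higher (Trim30a, Trim30b, Trim30c, Trim30d and Trim34a) and none lower, against 3.76% and 12.6% of genes. In cells with Cd4 and no Cd8, 3 of 12 were higher (Trim30a, Trim30c and Trim30d) and none lower, against 3.88% and 6.85% of genes. Foxp3-positive cells, which can overlap the Cd4 subset and include regulatory T cells, had 2 of 11 higher (Trim30a and Trim30d) and none lower, against 4.19% and 6.42% of genes. Trim30a was at 195 CPM in PBS against 629 in EM in the Cd8 subset (log2 ratio 1.69), at 209.6 and 643 CPM in the Cd4 subset (1.62) and at 240.3 and 671 CPM in the Foxp3-positive cells (1.48). Trim30d had log2 ratios of 1.62, 1.57 and 1.65 in the same order. Of the other members, Trim17 was higher in the Cd8 subset (1.43) and in the Cd4 subset. In the latter it went from 0 to 21 UMIs, 4.75-fold higher against a floor of 3 PBS counts. Trim47 was lower in the Cd8 subset (-1.98), and in Foxp3-positive cells Trim23 was lower (-1.38) and Trim46 higher (2.91, from 1 and 19 UMIs). T-cell clusters split by library as well, the 2 largest holding 109 PBS with 2104 EM cells and 2097 PBS with 18 EM cells.

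B cells (69 in PBS and 112 in EM) and dendritic cells (80 and 278), both smaller classes, were compared after the data had been seen. In dendritic cells 5 of 11 interferon-linked members were higher and none lower, against 6.32% and 8.29% of genes. Trim30a was at 181 and 787 CPM there (log2 ratio 2.12, 1.85 to 2.39), Trim30d at 83.2 and 299 CPM (1.84), Trim34a at 14.8 and 56.6 CPM (1.94), Trim12c at 21.5 and 75.2 CPM (1.81) and Trim30b at 4.03 and 43.2 CPM (3.42, from 3 and 42 UMIs). In B cells 2 of 10 were higher (Trim30a at 147 and 501 CPM, log2 ratio 1.77, and Trim30d at 52.9 and 174 CPM, 1.72) and 1 was lower, Trim12c, against 8.67% and 7.08% of genes. Trim30b was level in B cells, at 41.6 and 40.9 CPM. Among the other members, Trim36 (1.11) and Trim39 (2.28, from 3 and 19 UMIs) were higher in dendritic cells, and Trim7 (1.09) in B cells.

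Levels across all classes showed where each member was most abundant. In PBS, neutrophils, a class of 769 cells with 2 counterparts in EM, held the highest level of 6 interferon-linked members with intervals apart from the next class: Trim12a (222 CPM), Trim12c (161), Trim30a (698), Trim30b (263), Trim30c (27.5) and Trim30d (477). The share of all genes that peak in this class was not computed, so the count of 6 has no background. The next class for Trim30a was microglia at 266 CPM. Interferon-linked members made up 84.6% of the Trim transcripts of PBS neutrophils, against 48.9% in PBS T cells. Neutrophils of the PBS library thus held a Trim30a level close to that of EM T cells, 640.1 CPM. In EM, plasmacytoid dendritic cells, professional interferon producers with 177 cells in EM and 6 in PBS, held the highest Trim30a (1138 CPM) and Trim30d (558 CPM). Trim30c was highest in EM monocytes/macrophages.

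**Figure D4:**
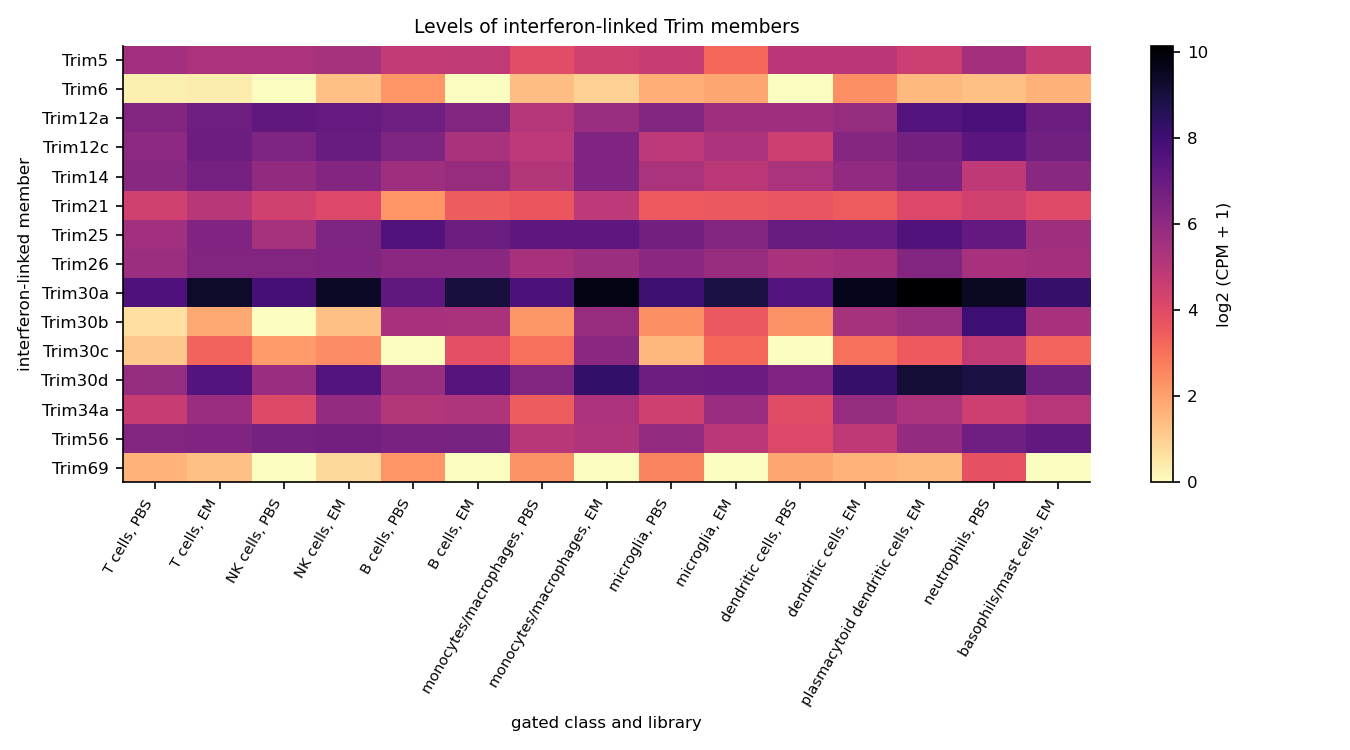
Level of the 15 interferon-linked members (y axis) in each gated class and library with at least 50 cells (x axis), as log2 of CPM plus 1 (colour scale, darker is higher), 1 library per treatment. Rows are to be read from left to right; among the EM columns the Trim30a and Trim30d rows are darkest in plasmacytoid dendritic cells, at 1138 CPM for Trim30a, and among the PBS columns in neutrophils, at 698 CPM.

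Some other members stood highest in a given class, not always in both libraries. In PBS, microglia held the highest level of Trim2 (19.9 CPM), a ligase of neurofilament turnover, of Trim8 (137 CPM) and of Trim47 (50 CPM), each with an interval apart from the next class. This held less well in EM, where Trim8 was highest in T cells (78.2 CPM), with microglia at 73.8 CPM. Trim2 (13.7 CPM, 5 UMIs) and Trim47 (27.3 CPM) were again highest in EM microglia, but their intervals overlapped those of the next class. Trim35, a SPRY-type ligase, was highest in dendritic cells in both libraries, at 130.2 CPM in PBS against 128 in EM. Trim7, which binds glycogenin, was highest in B cells, at 41.6 CPM in PBS, where the interval overlapped that of dendritic cells, and at 88.6 CPM in EM, where it did not. Trim29 had 104 of its 110 gated UMIs of the PBS library in monocytes/macrophages and 0 in every EM class. Trim59, a ligase of the endoplasmic reticulum membrane, was highest in T cells, at 55.8 CPM in PBS against 60.9 in EM, with intervals apart from NK cells in EM alone.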

How the data were processed

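The deposited files held whole-number UMI counts per gene and cell for 2 libraries, 1 PBS and 1 EM. Per the submitters' processing notes the authors used CASAVA 1.8, STARsolo and mm10; the annotation, cell calling and treatment of reads that match several genes were not stated there or in the labels and are not assumed. Cells with at least 500 UMIs, 200 genes and at most 20% mitochondrial UMIs were kept (43538431 UMIs in PBS and 19302929 in EM). A cell joined a class with at least 2 of its 8 markers and more than of any other class. No doublet caller was run; an alternative left out cells with 2 or more markers of a second class. Counts were summed per class and library, scaled to CPM, and compared as a log2 ratio with an exact conditional binomial 95% interval over all genes with at least 20 UMIs in the class (Python 3.11.15, scipy 1.17.1); levels carry exact Poisson intervals. Intervals and floors of 3 counts cover counting error only. The ratio step was tested on simulated data. Named genes were every interferon-linked member, Trim24, Trim28, Trim33, any other member called, and the 3 others of highest PBS level per class; genes named for a class they mark were chosen after their values were seen. The members, lists and markers were chosen with earlier results of these data known. Gene positions are from GENCODE (GRCm38), promoters from RefSeq, and 10 alternatives were run. Protein sequences were not used here.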

Additional observations from a re-analysis of the deposited data

Results flagged for a closer look

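Trim12c was called in opposite directions in different classes. Its log2 ratio was -1.09 in B cells, from 23 PBS and 12 EM UMIs, and 1.54 in monocytes/macrophages, 1.22 in their C1q-positive and 1.25 in their C1q-negative subset, and 1.81 in dendritic cells. Trim44 had a log2 ratio of 1.44 in microglia and -1.13 in C1q-negative monocytes/macrophages, the latter from 34 PBS and 9 EM UMIs. With 1 library per treatment neither difference was tested.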

How the results depend on the processing

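No paired analysis was possible because each treatment had 1 library. Over 10 alternatives, Trim30a, Trim30d, Trim30b and Trim30c kept their calls in T cells and monocytes/macrophages wherever they had enough UMIs, with Trim30a between 1.5 and 1.79 in T cells and between 1.97 and 2.22 in monocytes/macrophages. Trim30c in monocytes/macrophages ranged from 1.84 to 3.55. Trim24 in microglia changed sign, to 0.056, with classes from clusters, and was not called under the stricter gate (-0.88) or the stricter cell filter (-0.92); the cause was not tested. The count of interferon-linked members called higher changed by more than 1.5 times at a 1.5-fold limit alone, to 9 in T cells and 2 in microglia. Otherwise it lay between 4 and 5 in T cells, 3 and 4 in NK cells, and 7 and 8 in monocytes/macrophages, and was 1 in microglia. Counts of other members called either way (2 in T cells, NK cells and microglia, 5 in monocytes/macrophages) became 6 in T cells, 6 in NK cells, 9 in monocytes/macrophages and 5 in microglia at 1.5-fold. Without cells of a second class they were 4 in NK cells and 1 in monocytes/macrophages. In thinned cells they were 1 in T cells, 0 in monocytes/macrophages and 0 in microglia, where 1 other member could be compared. They were 6 in microglia under the stricter cell filter, 7 there with median-of-ratios scaling, and 1 in NK cells with at least 50 UMIs. Thinning left out 199 of 509 EM monocytes/macrophages and 188 of 299 EM microglia, so depth limits those classes most.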
